A study of Rattus norvegicus with 84 samples.

Results

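The effect of the histone deacetylase inhibitor SAHA after a water maze session was examined in the hippocampal tissue labelled CA3. The 14 arrays, chosen by their labels alone, comprised 7 of SAHA RPC rats and 7 of Veh RPC rats, out of 84 arrays in the series. All animals were male F344xBN rats aged 7 months, 28 in 4 groups of 7, and each gave tissue labelled CA1, CA3 and DG (dentate gyrus). SAHA RPC rats were injected with SAHA at 50 mg/kg in 100% DMSO, and Veh RPC rats with the same volume of DMSO alone (0 mg/kg). Per the labels, the injection came 10 min before a maze task called RPC (redundant place and cue) of 17 trials, and a probe trial of 60 s came 85 min after the onset of training. Both RPC groups had been trained in the maze over 8 days, ending a week earlier. SAHA HC and Veh HC rats received the same injections but stayed in the home cage, with no maze training at any time. The labels put death 90 min after the injection in all 4 groups. These times cannot all hold as stated, since the probe trial would then fall after death, and they are given as the labels have them. Every control rat had also received undiluted DMSO, and an uninjected group was not analysed here.

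SAHA (vorinostat) blocks zinc-dependent histone deacetylases, enzymes that remove acetyl groups from lysines of histones and other proteins. Added acetylation loosens chromatin and creates binding sites for reader proteins such as bromodomain proteins, and inhibitors of these enzymes can strengthen memory in rodents. CA3 pyramidal neurons receive mossy fibres from dentate granule cells and are densely interconnected, and the field is known for rapid storage and recall of places. Exploration and learning induce immediate early genes such as Fos and Arc in these neurons.

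Array quality came first, because it differed among these 14 arrays. The median correlation of an array with the other 27 arrays labelled CA3, over the 10594 probes tested, was 0.935 at the lowest, 0.986 at the median and 0.991 at the highest in SAHA RPC, and 0.814, 0.972 and 0.989 in Veh RPC. All 14 home cage arrays lay between 0.985 and 0.992. SAHA RPC replicates 4 and 6 and Veh RPC replicates 3, 4 and 6 fell below 0.971, which is 5 median absolute deviations under the median of the 28 arrays. The 14 RPC arrays averaged 0.963 ± 0.0467 and the 14 home cage arrays 0.989 ± 0.0019 (SD), a difference of -0.026 (two-sided permutation test, p = 0.00166, adjusted p = 0.00498 over 3 measures). Between the drugs, the correlation averaged 0.977 ± 0.0201 in SAHA RPC and 0.949 ± 0.0623 in Veh RPC (SD, n = 7 each), which did not pass the test (exact permutation test, two-sided, adjusted p = 0.332).

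The share of probes detected (detection p under 0.01) ran from 42.28% to 47.53% in SAHA RPC and from 35.35% to 46.51% in Veh RPC (exact permutation test, two-sided, adjusted p = 0.332). The mean raw signal did differ: it averaged 843.0 ± 43.1 intensity units in SAHA RPC and 762.0 ± 43.4 in Veh RPC (SD, n = 7 each; exact permutation test, two-sided, p = 0.00583, adjusted p = 0.0175). The quantile normalization used below gives every array the same distribution and so removes such a shift. RPC and home cage arrays passed the test neither for the share detected (adjusted p = 0.27) nor for the raw signal (adjusted p = 0.138, permutation tests).

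**Figure D1:**
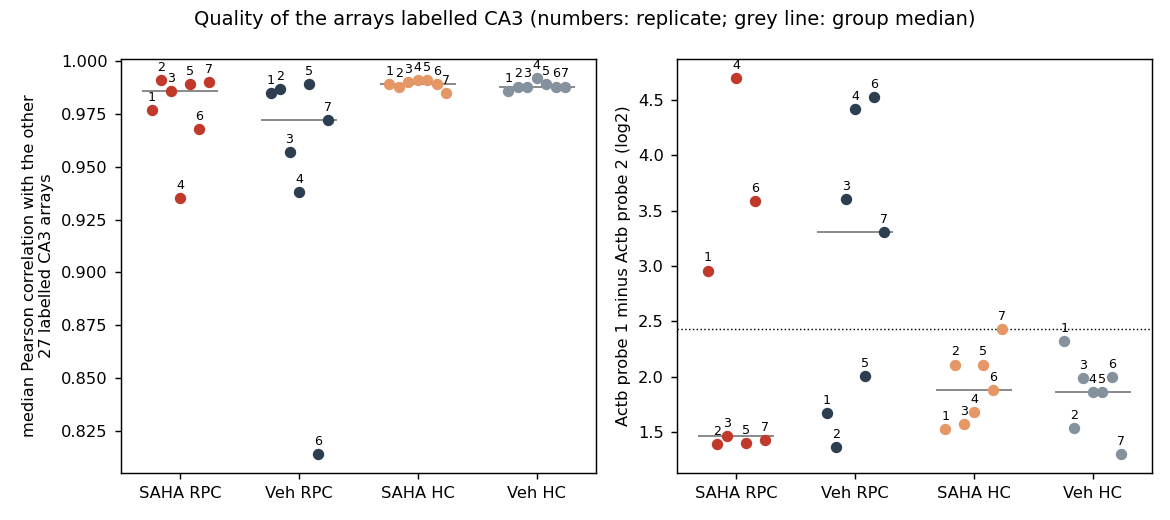
Quality of the 28 arrays labelled CA3. The left panel plots each array's median Pearson correlation with the other arrays, and the right panel plots the difference between 2 Actb probes on the log2 scale, for SAHA RPC, Veh RPC, SAHA HC and Veh HC. Points are arrays, numbers are replicates, grey lines are group medians, and the dotted line marks the highest home cage value, 2.43. In the right panel 3 SAHA RPC and 4 Veh RPC arrays lie above every home cage array.

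The arrays of low correlation shared a pattern that was visible within 1 gene. Actb, which encodes the cytoskeletal protein beta-actin, has 3 probes on the array. On Veh RPC replicate 6 the probes ILMN_2038799, ILMN_1355039 and ILMN_2038798 read 11.07, 8.01 and 6.55 on the log2 scale, while on SAHA RPC replicate 2 they read 14.36, 13.06 and 12.97. The difference between the first and the last of these probes was therefore taken as an index, chosen after the values had been seen. It lay between 1.3 and 2.43 on the home cage arrays and above 2.43 on 7 RPC arrays, 3 of SAHA RPC (replicates 1, 4 and 6) and 4 of Veh RPC (replicates 3, 4, 6 and 7).

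Those 7 arrays differed from the other 7 RPC arrays, without overlap, in 1322 probes that read lower and 1051 that read higher, together 22.4% of the probes tested. Of all tested probes, 1024 averaged more than 2-fold lower on the 7 arrays and 55 more than 2-fold higher. The probes of Ppp2r5b, a regulatory subunit of protein phosphatase 2A, averaged 5.87 on the 7 arrays and 10.25 on the others. B3gat1, which makes the HNK-1 carbohydrate of neural adhesion molecules, averaged 5.1 and 9.33. Among the probes that read higher were Phlda1 (7.76 and 6.24) and Dusp10, a phosphatase of stress-activated kinases (8.1 and 6.71).

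The myelin genes did not move as a group between these 2 sets of arrays. Mbp, myelin basic protein, averaged 8.79 on the 7 arrays and 12.26 on the others, although home cage arrays also ranged widely, from 9.82 to 12.23 in SAHA HC and from 9.15 to 12.81 in Veh HC. Mobp, another myelin protein, averaged 12.07 and 12.09, and Cnp, a myelin enzyme, 12.9 and 12.58. Across the 118 genes with 2 tested probes, the difference between the sets for 1 probe and that for the other had a Pearson correlation of -0.0114, given as a description over probes of the same arrays. The first principal component of the 14 arrays held 67.6% of the variance and the second 18.9%. The part of RNA quality or hybridization in this split was not tested.

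**Figure D2:**
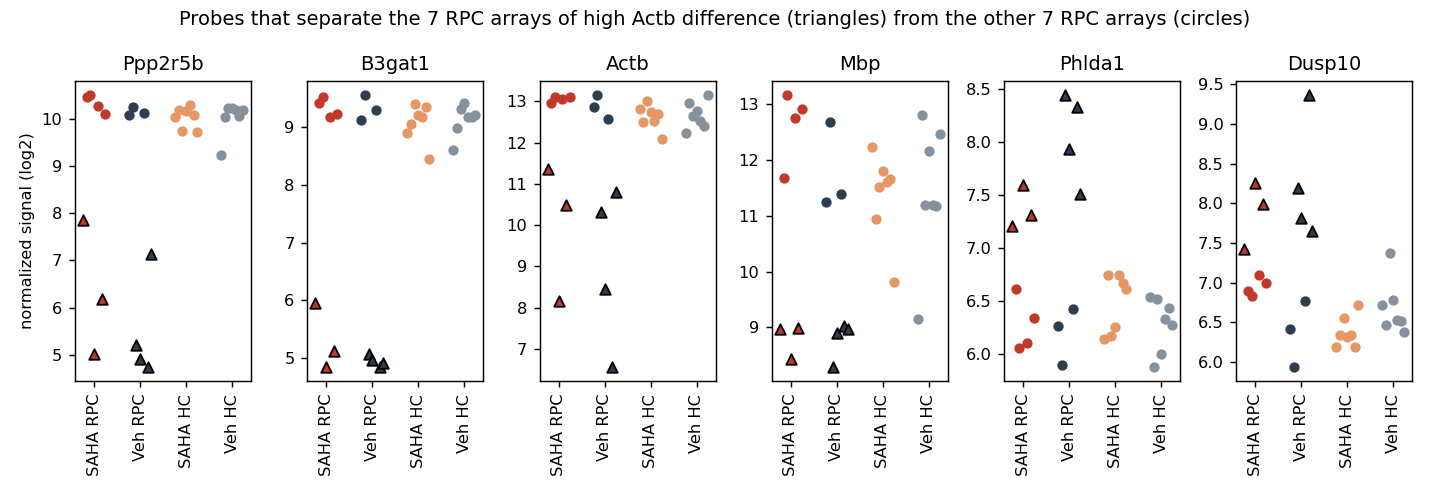
Normalized signal (log2) of 6 probes on the SAHA RPC, Veh RPC, SAHA HC and Veh HC arrays labelled CA3. Triangles are the 7 RPC arrays whose Actb difference exceeds every home cage array, and circles are all other arrays. Triangles of both drugs lie below the RPC circles for Ppp2r5b, B3gat1, Actb and Mbp and above them for Phlda1 and Dusp10. The separation follows from the choice of probes. The Actb probe is part of the index, and the others were taken from those that differed most between these sets.

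The tissue label was borne out by markers of CA3. Nectin3, an adhesion protein enriched in CA3, averaged 8.58 ± 0.22 in the 14 RPC arrays labelled CA3, 6.88 ± 0.29 in those labelled CA1 and 5.88 ± 0.29 in those labelled DG (SD). Bok, an apoptosis regulator enriched in CA3, averaged 12.48 ± 0.11, 11.25 ± 0.18 and 11.89 ± 0.17. The CA3 markers Grik4 and Iyd were detected on none of the 14 arrays. The other 2 labels went against their markers. C1ql2, a granule cell gene, averaged 11.15 ± 0.21 on RPC arrays labelled CA1 but 8.42 ± 0.96 on those labelled DG. Mpped1, a CA1 neuron gene, averaged 5.07 ± 0.3 on RPC arrays labelled CA1 but 7.96 ± 0.33 on those labelled DG.

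SAHA against vehicle after RPC gave no call. Of 10594 probes, 0 passed an adjusted p under 0.05 (0%), and every one of the 20 genes of smallest p had an adjusted p of 0.866 (limma, Benjamini-Hochberg). At an unadjusted p under 0.05, 47 probes were higher with SAHA (0.444%) and 93 lower (0.878%), 140 in all, where 529.7 would have that p if no probe differed and the p-values were evenly spread. The values of the 2 groups did not overlap for 0 probes higher with SAHA (0%) and 2 lower (0.0189%), Ctsk and Coil. Without the 5 arrays of low correlation 0 probes passed and 267 had an unadjusted p under 0.05, and with array weights 0 passed and 1859 had one. The median difference over all probes was -0.02 on the log2 scale.

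The spread of the RPC arrays limited what could be seen. The median SD of a probe was 0.213 in SAHA RPC and 0.386 in Veh RPC, against 0.153 in SAHA HC and 0.145 in Veh HC. The median standard error of the drug difference was 0.173 after RPC and 0.083 in the home cage. The 95% interval of the difference lay within 1 log2 unit of 0, a 2-fold change, for 9082 probes after RPC and for 10580 in the home cage.

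Tmem252, which encodes a transmembrane protein, had the smallest p. It read 5.35, 5.83 and 7.31 (lowest, median and highest log2 signal) in SAHA RPC and 6.77, 7.31 and 7.67 in Veh RPC, and was detected on 5 and 7 arrays. SAHA RPC replicate 1, at 7.31, lay within the vehicle range, and the other 6 SAHA RPC arrays lay below all 7 vehicle arrays. The difference was -1.16 ± 0.27 (SE, n = 7 each, limma adjusted p = 0.866), and -1.36 ± 0.22 without SAHA RPC replicate 1 (limma adjusted p = 0.258). That array was singled out by its value. Leaving out any other 1 array gave differences from -1.24 to -1.03, with an adjusted p of 0.676 or more (limma). With all 84 arrays in 1 fit, the difference of -1.16 had an adjusted p of 0.0107 (limma). That fit shares 1 estimate of the spread over all groups and takes the 3 regions of a rat as independent.

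In the home cage Tmem252 was the 1 probe that passed the test (0.00944% of probes, with 2.26% at an unadjusted p under 0.05). It was detected on 0 of 7 SAHA HC arrays, where its measured mean was 5.3, and on 7 of 7 Veh HC arrays, where it was 6.89. Tmem252 fell in SAHA HC, and Veh HC was at least 2-fold higher, counting the undetected side at the lowest signal detected on each array (fitted difference -1.59 ± 0.14, limma adjusted p = 2.89e-05). The drug by behaviour interaction for Tmem252, the RPC difference less the home cage difference, was fitted as 0.43 ± 0.32 (limma adjusted p = 0.884). That value rests on the SAHA HC arrays, none of which detected the probe, so the size of the interaction cannot be read from it. After RPC, Tmem252 had a fitted difference of -1.28 ± 0.21 in the arrays labelled CA1 (limma adjusted p = 0.14), where it was detected on 1 of 7 SAHA RPC and 7 of 7 Veh RPC arrays, and of -1.21 ± 0.23 in those labelled DG (limma adjusted p = 0.0919), where it was detected on 5 and 7. The labelled CA3 difference less these was 0.12 ± 0.37 for labelled CA1 (limma adjusted p = 0.887) and 0.05 ± 0.37 for labelled DG (limma adjusted p = 0.971). Both are limited by undetected SAHA RPC arrays, most of those labelled CA1 and some of those labelled CA3 and DG. The array numbered 1 was the highest SAHA RPC array in the other regions too, at 6.71 in labelled CA1 and 7.52 in labelled DG, although nothing in the labels ties equal numbers to the same animal.

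**Figure D3:**
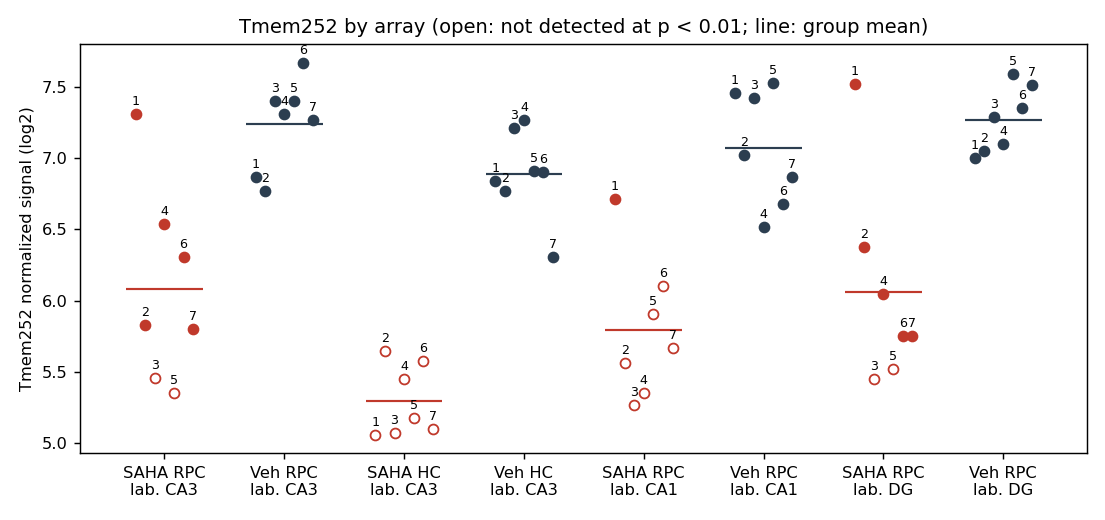
Normalized signal (log2) of Tmem252 on each array of the SAHA and vehicle groups labelled CA3 (RPC and home cage) and of the RPC groups labelled CA1 and DG. Points are arrays with their replicate numbers, open points were not detected, and lines are group means. The SAHA RPC arrays labelled CA3 run from 5.35 to 7.31 and the Veh RPC arrays from 6.77 to 7.67.

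Of the 20 genes of smallest p, 17 were lower with SAHA and 3 higher, none past the threshold. With all 84 arrays in 1 fit, 10 of them passed (limma adjusted p from 0.0107 to 0.046). Tmem252, Itpka, Ctsk, Arhgap12, Htr5b, Calb1 and Ccnh were lower in that fit, and Cdc42ep2, Gltp and Rtn4 higher. It takes the regions of a rat as independent and shares 1 spread over all groups. These include home cage groups with a lower median SD (0.153 in SAHA HC and 0.145 in Veh HC) than SAHA RPC (0.213) and Veh RPC (0.386). The genes had been chosen by their p on the same RPC arrays, so passing there is not a separate test of them. Itpka, a neuronal kinase that phosphorylates inositol trisphosphate and bundles actin in dendritic spines, read 11.08, 11.32 and 11.54 in SAHA RPC and 11.41, 11.68 and 11.86 in Veh RPC. The groups overlapped narrowly, and the difference was -0.35 ± 0.09 after RPC and 0.04 ± 0.06 in the home cage (limma adjusted p = 0.866 and 1). After RPC it was -0.03 ± 0.07 in labelled CA1 and -0.01 ± 0.07 in labelled DG. Ctsk, cathepsin K, a lysosomal protease, read 8.1, 8.7 and 8.99 in SAHA RPC and 9.03, 9.13 and 9.57 in Veh RPC, without overlap. Its difference was -0.52 ± 0.14 after RPC and 0.02 ± 0.07 in the home cage. After RPC it was -0.15 ± 0.16 in labelled CA1 and 0.06 ± 0.06 in labelled DG. Coil, the scaffold of Cajal bodies, also did not overlap, with 8.33, 8.46 and 8.53 in SAHA RPC and 8.58, 8.64 and 8.71 in Veh RPC, a difference of -0.19.

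Other genes at the low end had wider spreads. Calb1, the calcium buffer calbindin, read 9.4, 9.9 and 10.27 in SAHA RPC and 9.87, 10.36 and 10.75 in Veh RPC, a difference of -0.51 ± 0.16. Ccn2, a secreted matrix protein, read 9.21, 9.74 and 10.23 in SAHA RPC and 10.03, 10.15 and 10.81 in Veh RPC. Htr5b, a serotonin receptor, read 6.42, 7.25 and 8.13 in SAHA RPC and 7.73, 8.05 and 8.57 in Veh RPC. The groups overlapped for all 3 of these genes. The remaining genes of this direction were Zcchc12, Adgrl2, Arhgap12, Lyzl4, Thpol1, Ttc22, Ccnh, Yeats4, Frzb, Myh7 and Wfdc1, with differences from -1.08 for Lyzl4 to -0.23 for Ccnh. Most genes of this direction, all but Tmem252, Ccnh and Yeats4, had a higher Veh RPC median in labelled DG than in labelled CA3. For Adgrl2 these medians were 10.7 in labelled DG and 8.11 in labelled CA3, and for Htr5b 9.75 and 8.05. Lyzl4 had Veh RPC medians of 10.13 in labelled CA3, 6.92 in labelled CA1 and 11.46 in labelled DG. For Yeats4 these were 10.45, 10.31 and 10.39. The part of dissection in the drug differences was not tested.

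The 3 genes that were higher with SAHA were Cdc42ep2, an effector of the small GTPase Cdc42, Gltp, a glycolipid transfer protein, and Rtn4, the myelin-associated inhibitor Nogo. Cdc42ep2 read 9.29, 9.63 and 10.06 in SAHA RPC and 7.67, 9.27 and 9.5 in Veh RPC, where the 2 lowest arrays were replicates 6 and 1. Its difference was 0.77 ± 0.25. Rtn4 read 14.47, 14.62 and 14.88 in SAHA RPC and 13.95, 14.41 and 14.6 in Veh RPC, a difference of 0.29 ± 0.09. With median scaling in place of quantile normalization the Rtn4 difference was 0 ± 0.12 (limma adjusted p = 0.996). In the authors' deposited z-scores it was -0.04 z units. In the home cage the 20 genes other than Tmem252 had differences from -0.15 for Wfdc1 to 0.23 for Ccn2.

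**Figure D4:**
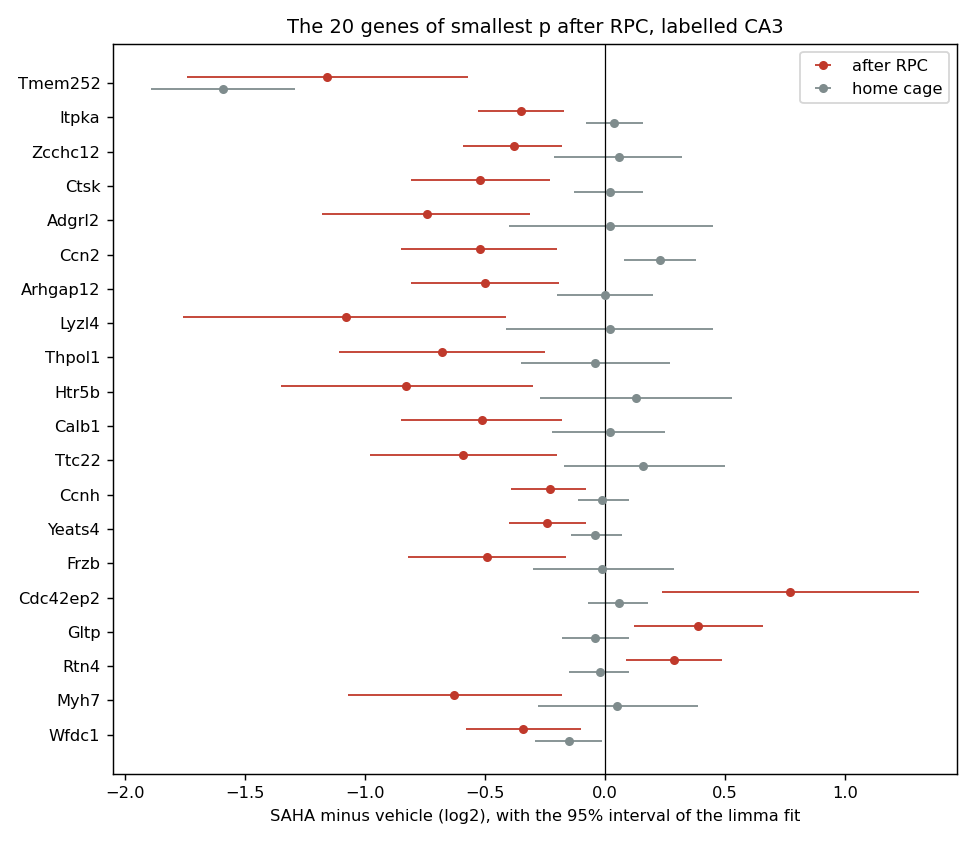
Difference SAHA minus vehicle (log2) of the 20 genes of smallest p after RPC in labelled CA3, with the 95% interval of the limma fit, after RPC (red) and in the home cage (grey). The genes were chosen by their RPC values, so their RPC intervals exclude 0 by choice. Except for Tmem252, the home cage points lie between -0.15 and 0.23.

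Tmem252 was lower with SAHA in both sets of arrays made by the Actb index. On the arrays within the home cage range, 4 of SAHA RPC and 3 of Veh RPC, the difference was -1.41 ± 0.18 (limma adjusted p = 0.0669), and on those above it, 3 of SAHA RPC and 4 of Veh RPC, it was -0.69 ± 0.28 (limma adjusted p = 0.909). Itpka differed by -0.30 ± 0.09 and -0.40 ± 0.16 in these 2 sets, and Ctsk by -0.62 ± 0.16 and -0.36 ± 0.18. In neither set did a probe pass the test, with 647 and 95 probes at an unadjusted p under 0.05.

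Genes of the drug's own machinery gave no call. Of 11 zinc-dependent histone deacetylase genes 6 were tested, 0 passed, 5 were below 0 and the median difference was -0.05, beside -0.02 over all tested probes. Hdac3, the catalytic subunit of the nuclear corepressor complexes, read 9.01, 9.27 and 9.46 in SAHA RPC and 8.44, 9.03 and 9.3 in Veh RPC, with overlap. Its difference was 0.26 ± 0.12 (limma adjusted p = 0.866). Hdac1 and Hdac2, both of which are class I enzymes, differed by -0.08 ± 0.12 and -0.01 ± 0.09. Of 12 tested acetyltransferases and acetyl-lysine readers 0 passed and 9 were below 0, with a median of -0.09. Yeats4, which reads acetylated histone H3, read 10.14, 10.23 and 10.35 in SAHA RPC and 10.3, 10.45 and 10.75 in Veh RPC, a difference of -0.24 ± 0.07. The groups overlapped only at the edge, and the difference in the home cage was -0.04 ± 0.05. After RPC the Yeats4 difference was -0.31 ± 0.06 in labelled CA1 and -0.26 ± 0.07 in labelled DG (limma adjusted p = 0.171 and 0.307).

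Genes that respond to these inhibitors or to NF-kappa-B gave no call either. Of 15 tested inhibitor response genes 0 passed, with a median of 0.04 and a range from -0.52 for Ccn2 to 0.48. Of 8 tested NF-kappa-B genes 0 passed, with a median of -0.04. Nfkbia, the inhibitor of NF-kappa-B, read 11.3, 11.56 and 11.68 in SAHA RPC and 11.35, 11.68 and 11.94 in Veh RPC. Its difference was -0.18 ± 0.10 after RPC and -0.28 ± 0.06 in the home cage (limma adjusted p = 0.866 and 0.344). Slc40a1, the iron exporter ferroportin, differed by 0.03 ± 0.17 after RPC and 0.42 ± 0.09 in the home cage (limma adjusted p = 0.959 and 0.344). Its drug by behaviour interaction did not pass the test (limma adjusted p = 0.884). The RPC difference of Slc40a1 was 0.26 ± 0.12 on the arrays within the home cage range of the Actb index and -0.16 ± 0.31 on those above it. In labelled CA1 and DG it was 0.30 ± 0.11 and 0.47 ± 0.10 after RPC (limma adjusted p = 0.354 and 0.152). Vessel genes of the fixed set were at 0.23 for Apold1, 0.07 for Tie1 and -0.01 for Cldn5, and Kank3 was at -0.63, all with an adjusted p of 0.866 or more (limma). Apold1 was at 0.46 ± 0.16 on the arrays within the home cage range of the Actb index and 0.08 ± 0.31 on those above it (limma adjusted p = 0.788 and 0.943). After RPC it was at 0.39 ± 0.13 in labelled CA1 and 0.70 ± 0.09 in labelled DG (limma adjusted p = 0.328 and 0.0027).

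Immediate early genes showed no drug difference past the threshold. Of 28 tested members 0 passed, the median was -0.03, and 1, Rgs2, had an unadjusted p under 0.05 (-0.16 ± 0.07), beside 0.878% of all probes in that direction. The list median was -0.17 on the arrays within the home cage range of the Actb index, with 19 of 28 members below 0, and -0.02 on those above it. Fos, a transcription factor subunit induced by neuronal activity, read 7.53, 7.88 and 8.31 in SAHA RPC and 4.96, 8.14 and 8.31 in Veh RPC. The value of 4.96 was that of Veh RPC replicate 6, not detected there, and the other 6 vehicle arrays read 7.71 or more. The Fos difference was 0.23 ± 0.42 with that array and -0.22 without it. In the home cage Fos read 6.21 to 7.21 with SAHA and 6.79 to 7.5 with vehicle, below every RPC array but that one; RPC against home cage was not tested here.

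The other activity genes of the fixed set did not pass the test either. Arc, a regulator of synaptic receptor trafficking, read 8.36, 8.99 and 9.47 in SAHA RPC and 8.93, 9.32 and 9.81 in Veh RPC, a difference of -0.32 ± 0.18 (95% interval -0.7 to 0.07). Junb differed by -0.30 ± 0.20 (-0.72 to 0.12), and Egr1 by -0.04 ± 0.13 (-0.32 to 0.24). Npas4 was detected on 3 arrays of each group, with a difference of 0.15 ± 0.29. All of these had an adjusted p of 0.866 or more (limma).

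No pathway list held a called gene. Over all 17 pathway lists 302 list places were tested and 0 passed, with 1 at an unadjusted p under 0.05 in the higher direction and 7 in the lower, beside 0.444% and 0.878% of all probes. The list medians ran from -0.19 for the cold-induced RNA-binding proteins, which are only Cirbp and Rbm3, to 0.14 for the cathepsins and lysosomal enzymes, of which 13 of 19 were above 0. In the glucocorticoid response list, Zbtb16, a transcription factor, averaged 5.73 ± 0.42 in SAHA RPC and 6.45 ± 0.7 in Veh RPC. Sgk1, a kinase induced by glucocorticoids, averaged 13.9 ± 0.18 in SAHA RPC and 13.61 ± 0.29 in Veh RPC. The GABA receptor subunits had a median of -0.06, the glutamate receptor subunits -0.11 and the synaptic vesicle genes 0.11, with 14 of 22 above 0.

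**Figure D5:**
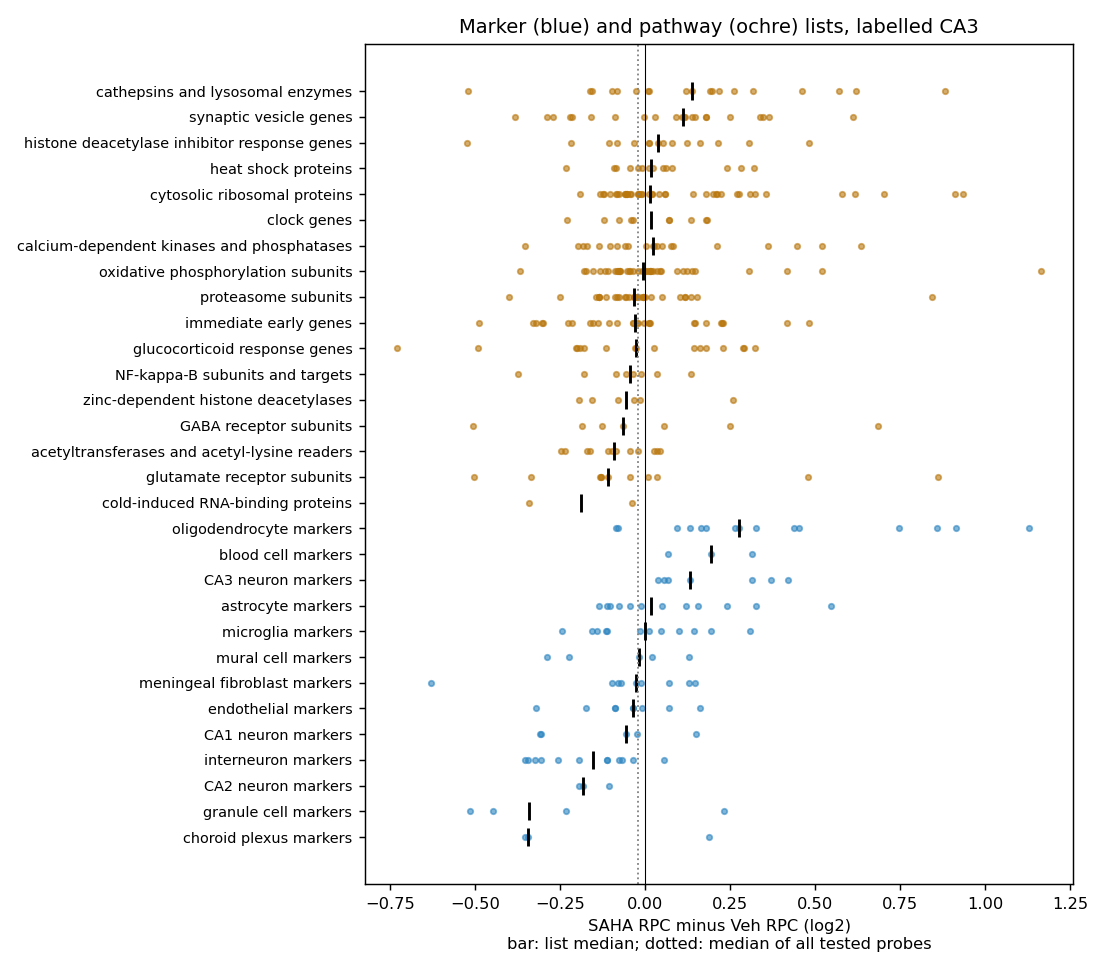
Difference SAHA RPC minus Veh RPC (log2) of the tested members of 13 cell marker lists (blue) and 17 pathway lists (ochre) in labelled CA3. Points are genes, bars are list medians, and the dotted line is the median of all tested probes, -0.02. The list medians lie between -0.34 and 0.28, and 0 members passed the test.

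Markers of cell types were compared in the same way, over 13 lists with 99 tested list places, of which 0 passed. At an unadjusted p under 0.05, 2 were higher and 6 lower, beside 0.444% and 0.878% of all probes. Oligodendrocyte markers had the highest list median, 0.28, with 13 of 15 tested members above 0. The mean level of the 16 oligodendrocyte markers on the array was 10.05, 10.22 and 10.79 in SAHA RPC and 9.65, 9.92 and 10.34 in Veh RPC, and all were detected on at least 1 array. Mobp averaged 12.3 ± 0.25 in SAHA RPC and 11.86 ± 0.37 in Veh RPC, a difference of 0.44 ± 0.16, and Mal, a myelin proteolipid, differed by 0.45 ± 0.17 (limma adjusted p = 0.866 for both). Mbp, the probe that separated the 2 sets of arrays, differed by 0.91 ± 0.92. In these bulk samples fewer cells of a type and less RNA per cell cannot be told apart. The list median was 0.52 on the arrays within the home cage range of the Actb index and 0.12 on those above it. In the home cage it was -0.08.

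Interneuron markers lay on the other side, with 11 of 12 tested members below 0 and a median of -0.15. Cck, Vip and Reln, 2 neuropeptides and a matrix protein of interneurons, differed by -0.30 ± 0.11, -0.35 ± 0.14 and -0.25 ± 0.11 (limma adjusted p = 0.866 for each). The mean level of the 12 interneuron markers was 9.25, 9.41 and 9.55 in SAHA RPC and 9.32, 9.64 and 9.76 in Veh RPC. The list median was 0 within the home cage range of the Actb index and -0.24 above it, and 0.1 in the home cage. All 7 tested CA3 markers were above 0, with a median of 0.13 and a highest value of 0.42 for Homer3, a postsynaptic scaffold. The CA1 list had 4 of 5 tested markers below 0 (median -0.06) and the CA2 list 3 of 3 (median -0.18). Over all tested probes 4847 differences were above 0 and 5718 below. Of 4 tested granule cell markers 3 were below 0, with a median of -0.34, and Prox1, the defining transcription factor of granule cells, was detected on none of the 14 arrays. The part of dissection in these lists was not tested.

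The 2 further comparisons that the design allows gave 0 calls. The drug by behaviour interaction had 0 probes past the threshold (0%), and 232 at an unadjusted p under 0.05 (limma, 28 arrays). Its smallest adjusted p was 0.884. The SAHA effect after RPC in labelled CA3 less that in labelled CA1 had 0 (0%), with 711 at an unadjusted p under 0.05, and less that in labelled DG 0 (0%), with 269 (limma, 42 arrays). These fits share 1 spread over groups whose arrays varied unequally. The regional fit also takes tissues of the same rats as independent, because the labels do not tie arrays of different regions to a rat. With array weights, which count noisy arrays less, 1360 of 10594 probes passed for labelled CA1 (863 higher and 497 lower) and 793 for labelled DG (615 higher and 178 lower). The weights were estimated from these same arrays, so the weighted counts are not a separate test. Array weights gave 0 calls for SAHA RPC against Veh RPC in labelled CA3.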

How the data were processed

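Total RNA (0.5 µg) of 84 dissected samples was hybridised to Illumina bead arrays, per the labels' protocols; GenomeStudio 2011.1 is named in the submitters' processing notes. The deposited intensity table holds 22523 probes, unnormalized, from 36 to 41948. Per the file headers each probe has a detection p-value on each array. Values of exactly 0.01, 29.84% of entries, were read as 0. That reading was a choice of the processing, and the detection counts rest on it. The authors' normalized score is a z-score of the log10 signal, used as an alternative.

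Signals were background corrected from the detection p-values (normexp, offset 16) and quantile normalized over 84 arrays in limma 3.58.1 (R 4.3.3). Probes with a detection p under 0.01 on at least 7 of the 28 arrays labelled CA3 were tested, 10594 in all. The 14 RPC arrays were fitted alone (lmFit, eBayes with a trend). Benjamini-Hochberg adjustment ran over all probes, with a threshold of 0.05. The interaction used 28 arrays and the regional differences 42. Array quality was tested by permutation (scipy, 100000 resamples where not exact). Precision is limited by having 7 arrays in a group.

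Of the 22523 probes, 13793 had 1 gene symbol, 8730 had none and 0 had several; a gene was read from its brightest tested probe. Named were the 20 genes of smallest p where none was called, 23 fixed genes (22 tested; Slc19a3 was too dim), up to 4 members of each of 30 lists, and genes whose groups did not overlap. Members, lists and rules were chosen with earlier results of these data known. No slide was given in the sources used here. The fits were tested on simulated data, with independent noise that had the spread of the SAHA HC arrays. That test did not cover the wider and unequal spread of the RPC arrays.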

Additional observations from a re-analysis of the deposited data

Results flagged for a closer look

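Dixon's rule was applied to 94 sets of 7 values, each set being 1 measure or gene in 1 group of arrays. In 9 sets an array lay far from the other 6. Chance alone would give about 1 in 20 for independent sets, but these sets share the same arrays. Of the 9 values 8 were of Veh RPC replicate 6. Its median correlation was 0.814, with 0.938 to 0.989 on the other 6 Veh RPC arrays. On the log2 scale it read 9.57 for Ctsk (9.03 to 9.25 on the others), 8.37 for Myh7 (7.01 to 7.53), 8.55 for Apold1 (7.03 to 7.59), 10.54 for Cldn5 (11.06 to 11.26), 4.96 for Fos (7.71 to 8.31), 8.07 for Hdac1 (7.41 to 7.66) and 8.44 for Hdac3 (8.98 to 9.3). The remaining one was the median correlation of SAHA RPC replicate 4, 0.935, with 0.968 to 0.991 on the other 6 SAHA RPC arrays.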

How the results depend on the processing

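The count of 0 called probes for SAHA RPC against Veh RPC was also 0 under the other settings run, with 1 exception: with all 84 arrays in 1 fit it was 14 (5 higher and 9 lower). It was 0 without each array in turn (0 to 0), with 77 to 376 probes at an unadjusted p under 0.05. With the replicate block it was 0, with 250 at that p. Deviations of same-numbered arrays correlated from -0.591 to 0.858, and 2 of 7 SAHA RPC arrays correlated best with their own number. These values cannot show whether equal numbers pair the arrays, because the split in array quality also enters the deviations. Array weights gave 4 called probes in the home cage (Ctla2a, Gadd45g, Slc40a1 and Tmem252), against 1 without them, 1360 for labelled CA3 less labelled CA1 and 793 for labelled CA3 less labelled DG; with no filter on dim probes the labelled CA1 difference had 1. The covariates for the Actb difference and 2 principal components, and the 2 sets of arrays, were chosen after the data had been seen, and gave 0. Of 39 named genes, 27 kept their sign in each setting run. The others changed sign as follows, in log2 units. In the authors' z-scores (z units) Rtn4 was -0.04, Crem 0.06, Hdac1 0.04 and Hdac2 0. With median scaling Crem was 0.12, Hdac1 0.07 and Hdac2 0, while Rtn4 kept its sign but rounded to 0. Without the 5 arrays of low correlation Fos was -0.15 and Npas4 -0.03. With array weights Tie1 was -0.12, Crem 0.01 and Fos -0.29. Npas4 was -0.06 with the Actb covariate, and with 2 principal components Fos was -0.16, Npas4 -0.08 and Hdac1 0.01. On the arrays within the home cage range Fos was -0.22 and Npas4 -0.34, and on those above it Slc40a1 was -0.16, Csrp2 -0.03, Crem 0.09, Phf13 -0.03, Cldn5 0.04, Egr1 0.16 and Hdac2 0.15. Leaving out 1 array gave ranges of -0.04 to 0.16 for Slc40a1, -0.02 to 0.14 for Tie1, -0.08 to 0.03 for Crem, -0.1 to 0.04 for Cldn5, -0.22 to 0.34 for Fos, -0.11 to 0.03 for Egr1 and -0.06 to 0.04 for Hdac2. The cause of these changes was not tested. Quantile normalization over the 28 labelled CA3 arrays cannot be applied to the regional differences and was not run there. Dim probes limit what can be read: Tmem252 was not detected on 2 of the 14 arrays.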
